A study of Mus musculus with 5 samples.

Results

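The mitochondrial ribosomal protein genes were taken as all genes of the deposited expression table whose symbol starts with Mrpl or Mrps followed by a digit, and 77 of the 13911 genes in the table matched. They were followed in single-cell transcriptomes of OT-I CD8+ T cells from mice of the strain C57BL/6-Tg(TcraTcrb)1100Mjb/J whose transgenic receptor recognises the ovalbumin peptide SIINFEKL. Spleen and lymph nodes were the source, and sorting took place at 0 h and after 24 h and 72 h of culture with peptide-loaded dendritic cells (DCs). The DCs were the sole partner or were joined by myeloid-derived suppressor cells (MDSCs), which are immature myeloid cells that dampen T cell responses. All 5 groups carry the same transgene, and each is 1 library. The 0 h library holds 2952 cells, the pair at 24 h 1562 (DCs) and 2247 (DCs and MDSCs), and the pair at 72 h 1926 and 4942. Libraries named "with DCs" below held no MDSCs, and those named "with MDSCs" held both. With 1 library per group no difference has a replicate check, no test was run, and each ratio compares a pair of libraries.

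Mitochondria have their own ribosome, the mitoribosome, which translates the few proteins encoded by mitochondrial DNA, all of them subunits of the respiratory chain and ATP synthase. Its RNA is made inside the organelle, but its proteins are encoded in the nucleus (Mrpl genes mostly for the large subunit, Mrps genes mostly for the small), made in the cytosol and imported. Some of these proteins descend from bacterial ribosomal proteins and others are particular to mitochondria. T cells that leave quiescence are known to enlarge their mitochondria and to depend on mitochondrial translation for proliferation and effector function.

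Of the 77 genes, 50 encode large-subunit proteins and 26 small-subunit proteins. Mrps18a and Mrps30 were placed in the large subunit, where their proteins are found despite their names. The remaining gene, Mrps36, encodes a protein since assigned to the oxoglutarate dehydrogenase complex of the citric acid cycle. Genes were counted in comparisons when their mean level over the 5 libraries was at least 10 adjusted CPM, where CPM is a gene's share of the library's adjusted counts scaled to 1000000. This left 6497 genes and 76 of the 77. The gene left out, Mrpl53, had a value above 0 in 0 of 2952 cells at 0 h and in 4 to 9 cells of each other library.

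Upstream sequences of 3 genes are shown because they differ in course. Mrpl20, the homologue of bacterial L20, and Mrps12, a protein of the decoding centre, had among the largest falls from 24 h to 72 h with MDSCs present. Mrps14, another small-subunit protein, was not lower in that interval. Each line gives the 150 bases before the RefSeq start site, on the gene's strand and 5′ to 3′, in build GRCm38.p6. Capitals mark an exact match to CACGTG, the E-box bound by MYC among others, or to GGGCGG, the GC box of SP1, on either strand, so CCGCCC is the GC box read from the other strand.
Mrpl20 (chr4:155802728-155802877, plus strand): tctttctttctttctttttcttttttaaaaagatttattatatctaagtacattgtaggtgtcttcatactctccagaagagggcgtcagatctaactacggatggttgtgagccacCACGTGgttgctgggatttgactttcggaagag
Mrps12 (chr7:28741822-28741971, minus strand): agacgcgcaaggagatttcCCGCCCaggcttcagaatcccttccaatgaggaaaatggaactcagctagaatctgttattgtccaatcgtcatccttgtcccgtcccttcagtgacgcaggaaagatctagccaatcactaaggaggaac
Mrps14 (chr1:160195065-160195214, plus strand): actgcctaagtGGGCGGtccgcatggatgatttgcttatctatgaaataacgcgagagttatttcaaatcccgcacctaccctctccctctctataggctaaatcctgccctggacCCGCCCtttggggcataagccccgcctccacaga
The Mrpl20 stretch holds an E-box and no GC box, the Mrps12 stretch 1 GC box, and the Mrps14 stretch 2.

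The deposited values had been adjusted so that the total per cell was nearly constant, between 13061 and 15988, and sequencing depth could not be recovered. A typical cell had 2210 genes above 0 in the 0 h library and 3111 to 3621 (medians) in the others. Of the 13519 cell barcodes, 110 occurred in more than 1 library. The T cell label matched the markers: 3 or more of 9 CD8 T cell markers were above 0 in 99.9% of the cells at 24 h with DCs and in 100% elsewhere. Cells with 3 or more markers of another type (myeloid, dendritic, NK or erythroid) numbered between 0 and 3 per library. B and CD4 T cells could not be found this way, since 2 of 9 and 2 of 3 of their markers were in the table. For NK cells 3 of 6 were in the table, so all of these had to be above 0. The summed dendritic list (6 of 11 markers in the table) stood between 0.46 and 15.1 CPM and the summed granulocyte and monocyte list (10 of 16 in the table) between 18.9 and 111 CPM. Nearly all of the latter was Ly6c2, which CD8 T cells also express, at 18.8 to 110 CPM; the other 9 genes summed to 0.123 to 5.51 CPM. The 0 h library stood apart: across its cells, variance over mean was below 0.5 for 58 of the genes that reached 50 CPM, and for 0 such genes elsewhere.

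Summed over all 77 genes, the mitoribosomal transcripts took 7772 CPM at 0 h, 11911 CPM at 24 h with DCs, 13656 CPM at 24 h with DCs and MDSCs, 8006.5 CPM at 72 h with DCs and 9806 CPM at 72 h with DCs and MDSCs. Both 24 h libraries were thus above the other 3, and at each time the library with MDSCs was above the one without. The large-subunit genes summed to 5070 CPM at 0 h, 8081 and 9259 CPM at 24 h (DCs, then MDSCs as well), and 5234 and 6348 CPM at 72 h. The small-subunit genes summed to 2563.5 CPM at 0 h, 3639 and 4167 CPM at 24 h, and 2589.5 and 3272 CPM at 72 h. The ratio of the large to the small sum was 1.98 at 0 h, 2.22 in both 24 h libraries, 2.02 at 72 h with DCs and 1.94 at 72 h with MDSCs as well, so the large-subunit sum differed more between times than the small-subunit sum. A large part of each total was cytosolic ribosomal protein RNA, from 33.7% at 24 h with MDSCs to 44.7% at 0 h. With the total taken without those genes and the mitochondrially encoded ones the summed levels were 14758, 19961, 21183, 13257 and 16826 CPM in the same order of libraries, which put 72 h with DCs below 0 h.

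The same order was seen from cell to cell. The median cell held 109 adjusted counts of the 77 genes at 0 h (5th to 95th percentile 85 to 134), 188 (129 to 232) at 24 h with DCs and 210 (172 to 245) at 24 h with MDSCs as well. At 72 h it held 119 (87 to 162) with DCs and 149 (111 to 187) with MDSCs. Of the cells at 24 h with MDSCs, 84.1% lay above the median cell without them, and at 72 h 89.9% did. Few 72 h cells reached the 24 h median: 0.363% of those with DCs lay above the 24 h median with DCs, and 0.486% did in the libraries with MDSCs. The ranges from the 5th to the 95th percentile at 24 h and 72 h still overlapped in both cultures. The library at 24 h with DCs had a longer tail of low cells than the one with MDSCs, with a coefficient of variation of 16.8% against 10.7%.

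**Figure D1:**
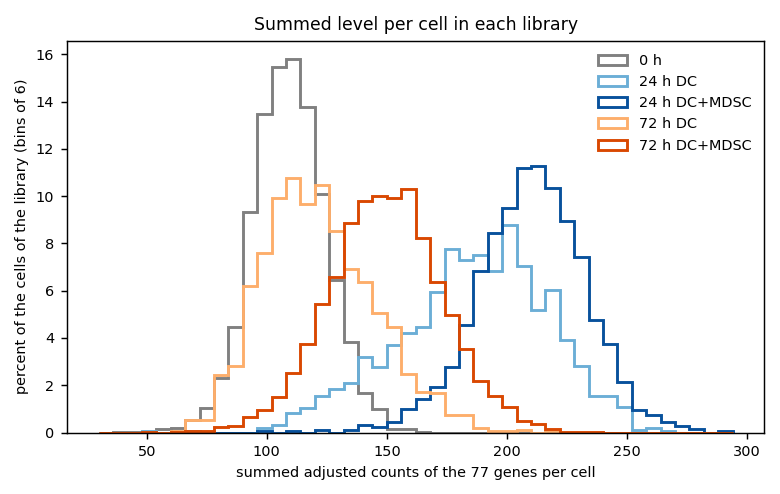
Distribution over cells of the summed adjusted counts of the 77 genes, as percent of the cells of each library in bins 6 counts wide. The median cell was at 109 at 0 h. It was at 188 (DCs) and 210 (MDSCs as well) at 24 h, and at 119 and 149 at 72 h.

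Within every library, cells with more large-subunit transcripts tended to have more small-subunit transcripts. Pearson's r across cells between both sums was 0.37 at 0 h, 0.63 at 24 h with DCs, 0.33 at 24 h with MDSCs, 0.60 at 72 h with DCs and 0.51 at 72 h with MDSCs. These are descriptions over 1562 to 4942 cells that share a library and a fixed total per cell. The sum of all 77 genes also correlated with the number of genes above 0 per cell, with r between 0.31 and 0.59, and negatively with the summed cytosolic ribosomal proteins, with r between -0.13 and -0.67. The part of both in the first correlation was not tested.

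**Figure D2:**
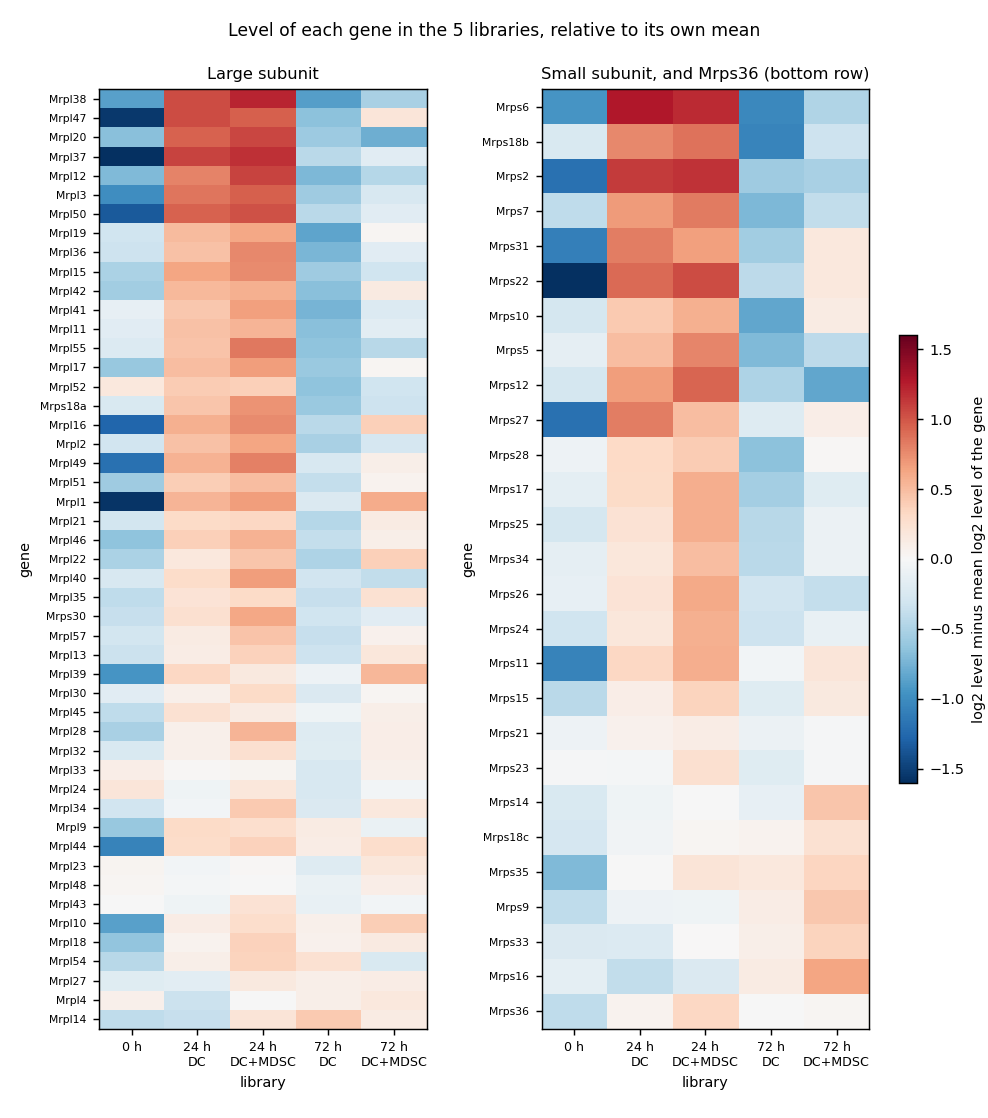
Level of each of the 76 counted genes in the 5 libraries, as the log2 level minus the gene's own mean over libraries, with colour limits at -1.6 and 1.6. The genes are ordered by the ratio of 72 h to 24 h with DCs, from Mrpl38 at -1.92 to Mrpl14 at 0.79 in the large subunit and from Mrps6 at -2.32 to Mrps16 at 0.52 in the small subunit, with Mrps36 at the bottom.

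How the genes stood after stimulation was read from 24 h with DCs over 0 h. All cultures held peptide-loaded DCs, so stimulation and time in culture cannot be told apart. Mrpl12, a stalk protein that also binds the mitochondrial RNA polymerase, was at 193 CPM at 0 h and 544 at 24 h, with 662, 191 and 230 CPM at 24 h with MDSCs, 72 h with DCs and 72 h with MDSCs. Only the 24 h libraries were high. Mrpl20 had the same course, with 167, 512, 559, 177 and 155 CPM in the same order of libraries. Mrps18b, 1 of 3 mitochondrial relatives of bacterial S18, was at 96.2 CPM at 0 h and 194 at 24 h. Its relative Mrps18a, at 95.6 and 153 CPM, was also higher, while Mrps18c stood at 111 and 129 CPM.

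At 1.5-fold, 44 of 76 genes were higher at 24 h and 0 lower (median log2 ratio 0.65). Over all 6497 genes 53.6% were higher and 14.6% lower, with a median of 0.69, so the share of 57.9% higher was near the background and the genes differed from it in the absence of lower members. Centred on the median of all genes, 17 were higher and 11 lower and the median turned to -0.047. The share of all genes past 1.5-fold after centring is not given here, so these centred counts have no background beside them. In the large subunit 32 of 49 genes were higher and in the small subunit 12 of 26. The largest ratios belonged to Mrpl37 at 78.7 against 12.0 CPM, Mrps22 at 64.0 against 10.6, Mrpl47 at 67.4 against 11.2 and Mrps2, of the bacterial S2 family, at 28.0 against 5.64. At the other end stood Mrpl4 at 75.4 against 101 CPM, Mrpl24 at 118 against 141, Mrps16 at 202 against 237 and Mrpl33 at 276 against 295, all within 1.5-fold. Mrps2 was below the minimum mean level at 0 h and also at 72 h (8.68 CPM with DCs, 9.02 with MDSCs). It was counted through its 24 h levels, so the minimum favoured a large ratio for it. Without any minimum 44 genes of the set were again higher, since Mrpl53 had a level of 0 at 0 h and so no ratio.

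The ratios are given here by the scatter and by the level at 0 h. For 40 genes with a variance over mean below 1 across the 0 h cells the median log2 ratio was 0.60 and 21 were higher, and for the other 36 it was 0.95 and 23 were higher. Over all genes 46.9% and 54.2% of the same classes were higher. The 22 genes below 50 CPM at 0 h (5.61 to 45.5 CPM) had a variance over mean of 1.37 to 2.12 there and log2 ratios of 0.32 to 2.71, with 21 of 22 higher. In the 54 genes that reached 50 CPM variance over mean was 0.56 to 1.62 and the log2 ratio -0.43 to 1.61, with 23 higher. Low genes at 0 h favour large ratios by construction, since that level is the denominator, and over all genes 65.9% of those below 50 CPM and 23.5% of the others were higher. In the first set of 22 genes, a value of 1 made up 28.9% of the 0 h values above 0, and 52.2 to 68.8% of those in other libraries. Over all genes below 50 CPM at 0 h these shares were 11.4% and 67.0 to 74.9%, so this was not particular to the 22. In the set of 54 genes the order was the other way, with 57.95% at 0 h and 17.4 to 33.1% elsewhere. Averaging natural log values per cell gave Mrpl37 a log2 ratio of 3.39 rather than 2.71. The part of the adjustment in the ratios against 0 h was not tested.

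**Figure D3:**
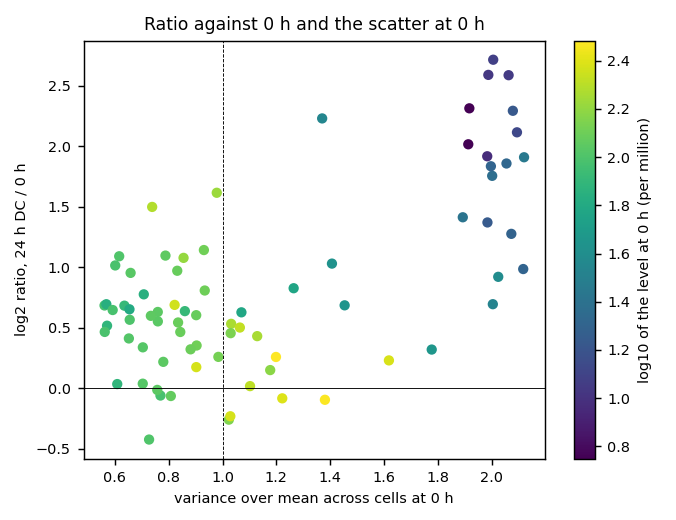
Log2 ratio of 24 h with DCs to 0 h for each of the 76 counted genes, against the variance over mean of its adjusted counts across the 0 h cells, coloured by the log10 of its level at 0 h. The genes with the largest ratios lie at a variance over mean near 2 and below 50 CPM at 0 h; centring on all genes turns the median of the set from 0.65 to -0.047.

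From 24 h to 72 h with DCs, 41 of 76 genes were at least 1.5-fold lower and 1 was higher (median log2 ratio -0.63). Over all genes 33.8% were lower and 21.5% higher, with a median of -0.23. Relative to that median 32 of the 76 genes were lower and 3 higher, and the same count over all genes is not given here. The lower genes were 27 of 49 in the large subunit and 14 of 26 in the small. Mrps6, the homologue of bacterial S6, stood at 35.0 CPM at 0 h, at 164 (DCs) and 154 CPM (MDSCs) at 24 h, and at 32.9 and 48.2 CPM at 72 h. Its ratio at 72 h against 24 h with DCs was -2.32 on the log2 scale, the lowest of the 76. Mrps6 spans 92058270 to 92112227 on chromosome 16 (GRCm38) and shares exon sequence with Slc5a3 on the same strand, so reads from both may be mixed. With DCs, the share of cells above 0 was 90.3% at 24 h and 37.1% at 72 h (exact 95% intervals 88.7 to 91.7% and 35.0 to 39.3%, counting error only).

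Mrpl38, Mrps18b and Mrpl47 had the next largest falls. Mrpl38 was at 28.3 CPM at 0 h, 106 and 121 CPM at 24 h, and 28.0 and 36.0 CPM at 72 h. Mrps18b was at 54.6 CPM at 72 h with DCs against 194 at 24 h, and Mrpl47 at 20.7 against 67.4. Mrpl12 had a log2 ratio of -1.51 and Mrpl20 of -1.53. In all of these the level at 72 h with DCs lay below or near that at 0 h, except for Mrpl47, which stood at 11.2 CPM at 0 h.

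A minority of genes did not follow. Mrps16, the homologue of bacterial S16, was at 237 CPM at 0 h, at 202 (DCs) and 226 CPM (MDSCs) at 24 h, and at 289.9 and 409.9 CPM at 72 h. It was lowest at 24 h with DCs and highest at 72 h with MDSCs. Mrpl14 was at 106 CPM at 0 h, 109 and 163 CPM at 24 h, and 188 and 154 CPM at 72 h, and was the gene called higher with DCs. Its exons overlap those of Tmem63b on the opposite strand, and the labels do not give the strand setting of the counting. Mrps18c was at 140 CPM at 72 h with DCs against 129 at 24 h, so the S18 relatives did not share a course: log2 ratios were -1.03 for Mrps18a, -1.83 for Mrps18b and 0.11 for Mrps18c. Mrpl4 (log2 ratio 0.44) and Mrps33 (0.31) completed the upper end.

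With MDSCs present, 33 of 76 genes passed 1.5-fold downwards from 24 h to 72 h and 1, Mrps16, upwards (median -0.43). Over all genes 40.6% were lower and 16.1% higher with a median of -0.38, so the lower share of 43.4% was near the background. Centred on that median, 17 of the 76 genes were lower and 6 higher, again without a centred count over all genes. Both time comparisons had 29 genes lower, which were 70.7% of the 41 without and 87.9% of the 33 with MDSCs. Among all genes 1912 (29.4%) were lower in both, which were 87.0% of the 2198 without and 72.5% of the 2637 with MDSCs. Another 12 mitoribosomal genes were lower only without MDSCs, among them Mrps10, Mrpl42, Mrps28 and Mrpl22, and 4 only with MDSCs (Mrps26, Mrpl54, Mrps24 and Mrps30), against 286 and 725 of all genes. The ratio of 72 h to 24 h was higher with MDSCs than without for 52 of the 76 genes, and for 2457 of all 6497. Whether these ratios differed between both cultures could not be tested with 1 library each.

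**Figure D4:**
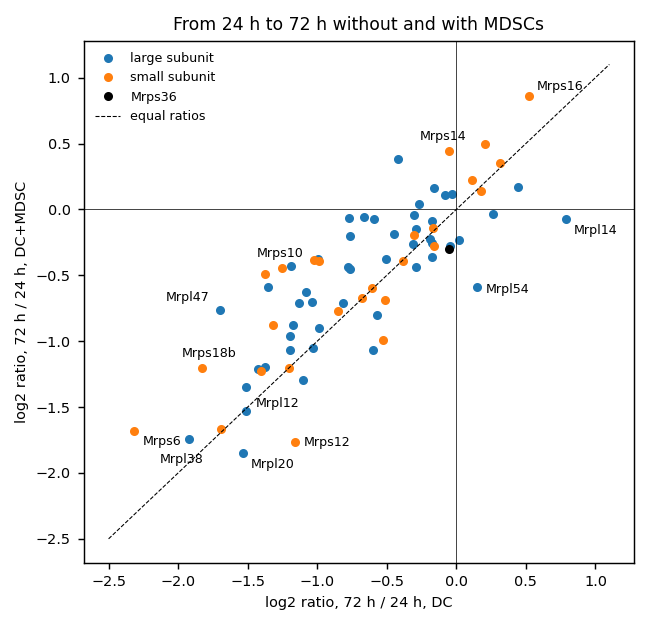
Log2 ratio of 72 h to 24 h for each of the 76 counted genes, without MDSCs on the horizontal and with MDSCs on the vertical axis, with the line of equal ratios dashed. Of the 76 points 52 lie above the line; Mrps12 (-1.16 and -1.76), Mrpl20 (-1.53 and -1.85), Mrpl54 (0.15 and -0.59) and Mrpl14 (0.79 and -0.08) lie below it.

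At 24 h the MDSC question, which early differences came with the suppressor cells, gave small ratios for these genes. At 1.5-fold 0 of the 76 were higher (1 when natural log values were averaged) and 0 lower, against 2.54% of all genes higher and 1.54% lower. Of the 76, 68 were above 0 and 8 below, and the median was 0.17 against 0.10 for all genes. Mrpl14 at 163 against 109 CPM (0.58), Mrpl28 at 235 against 170 (0.47), Mrpl34 at 219 against 159 (0.46) and Mrps26 at 215 against 164 (0.39) had the largest ratios. Mrps27, Mrpl39, Mrps31 and Mrpl45 had the smallest, from -0.32 to -0.11. With the total taken without cytosolic ribosomal and mitochondrially encoded genes the median was 0.058, with ratios centred 0.074, and in the separate table of the 24 h cells 0.13.

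At 72 h the libraries stood further apart. With MDSCs 14 of 76 genes passed 1.5-fold upwards and 0 downwards (median 0.31), against 7.9% of all genes higher and 12.7% lower (median -0.06). Of the 76 genes, 69 were above 0. The separate table of the 72 h cells gave 13 higher, 0 lower and a median of 0.30. The higher genes were 10 of 49 in the large subunit (Mrpl1, Mrpl16, Mrpl17, Mrpl19, Mrpl21, Mrpl22, Mrpl35, Mrpl39, Mrpl42 and Mrpl47) and 4 of 26 in the small (Mrps10, Mrps18b, Mrps28 and Mrps31). Mrps10 was at 69.6 CPM at 0 h, 112.5 and 125 CPM at 24 h, and 47.3 and 92.0 CPM at 72 h (DCs, then MDSCs), so the 72 h library with DCs was its lowest. At 72 h, 47.7% of the cells with DCs and 72.2% with MDSCs had a value above 0 (exact 95% intervals 45.5 to 49.97% and 71.0 to 73.5%, counting error only).

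Mrpl19 had 58.3 CPM at 0 h, 103 and 111 CPM at 24 h, and 40.3 and 74.0 CPM at 72 h. Mrpl22, a protein of the exit tunnel, from which new chains leave the ribosome, was at 45.0 CPM at 72 h with DCs and 82.3 with MDSCs, and Mrpl47 at 20.7 and 37.3. These 3 and Mrps10 had the largest ratios, from 0.85 to 0.96. All 7 genes of the exit tunnel list were above 0 and 3 of them past 1.5-fold, with a list median of 0.38. The 7 central protuberance genes had 6 above 0 and 0 past 1.5-fold (median 0.20). Of all 76 genes 69 were above 0 and 14 (18.4%) past 1.5-fold, so lists of 7 genes are too small to be set apart.

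Myeloid transcripts were scarce in both 72 h libraries. The granulocyte and monocyte list without Ly6c2 summed to 0.514 CPM with DCs and 1.77 with MDSCs, while Ly6c2 was at 42.3 and 21.0 CPM. S100a8, an abundant granulocyte transcript, was at 0 and 0.466 CPM. Only 1 cell with DCs and 0 with MDSCs held 3 or more markers of another type. Leaving them out left 14 genes higher, but so few cells could hardly change the count. It was therefore no check for transcripts of other cells.

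At the other end 7 genes were below 0: Mrpl9, Mrpl14, Mrpl20, Mrpl40, Mrpl54, Mrps12 and Mrps26. Mrpl54 stood at 184 CPM at 0 h, 266 and 319 CPM at 24 h, and 295 and 212 CPM at 72 h. Mrps12 stood at 107 CPM at 0 h, 208 and 249 CPM at 24 h, and 92.9 and 73.1 CPM at 72 h. For Mrps12, as for Mrpl14, Mrpl20, Mrpl40, Mrpl54 and Mrps26, the ratio with MDSCs was above 0 at 24 h and below 0 at 72 h.

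The libraries differed in cycling transcripts. The S, G2 and M phase genes took 0.572% of the counts at 24 h with DCs and 0.791% with MDSCs, and 0.976% and 0.869% at 72 h. The cells of each time were therefore ranked by these transcripts and split into 3 sets of like size. At 24 h the log2 ratio of the summed mitoribosomal level with MDSCs was 0.27, 0.13 and 0.07 from the lowest to the highest set, and 51.2% of the cells with DCs but 20.9% of those with MDSCs fell in the lowest. At 72 h it was 0.35, 0.23 and 0.30, with 25, 9 and 15 of 76 genes higher, against 19.7%, 5.08% and 8.85% of all genes. The ratio of the summed level was above 0 in all 3 sets at both times. With 1 library per group and cells that are no replicates, the part of cycling in these ratios was not tested.

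Other lists of the mitochondrial expression system were also mostly higher at 24 h than at 0 h and lower at 72 h with DCs; over all genes 53.6% were higher and 33.8% lower in these comparisons. Of 12 counted translation factors 11 were higher at 24 h than at 0 h and 8 were lower at 72 h than at 24 h with DCs (medians 1.32 and -0.82). Tufm, the mitochondrial elongation factor Tu, was at 21.0 CPM at 0 h, 74.4 and 83.9 CPM at 24 h, and 39.3 and 38.4 CPM at 72 h. Gfm1, elongation factor G1, was at 9.19, 44.2, 46.7, 20.3 and 20.0 CPM in the same order. Of 19 counted genes of mitoribosome assembly and turnover, 15 were higher and then 12 lower, among them Fastkd2, an RNA-binding protein needed for the large subunit, at 4.16, 30.9, 28.2, 4.87 and 6.30 CPM. In mitochondrial transcription and RNA handling 13 of 16 were higher and 11 then lower, and in protein import 16 of 20 and 13. The minimum mean level kept 12 of 16 translation factors in the table, 19 of 26 assembly genes, 16 of 21 transcription genes and 20 of 25 import genes. Fastkd2 was below that minimum at 0 h and 72 h and was counted through its 24 h levels. For such genes the minimum itself favours a rise and then a fall. The shares of all genes were taken under the same minimum. With MDSCs at 72 h, 0 of 12 translation factors and 2 of 19 assembly genes (10.5%) were at least 1.5-fold higher. So were 2 of 16 transcription genes (12.5%) and 2 of 20 import genes (10%), and 1 assembly gene was lower. The share higher was 7.9% for all genes and 18.4% (14 of 76) for mitoribosomal genes. With 12 to 20 genes, these lists are too small to be set apart from either share. The medians of these 4 lists were 0.17, 0.21, 0.14 and 0.21, against 0.31 for the mitoribosomal genes and -0.06 for all genes.

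Another 6 counted genes for mitoribosomal proteins have other names and so were outside the rule. Of these 3 were higher at 24 h than at 0 h and 1 was lower from 24 h to 72 h with DCs, against 53.6% and 33.8% of all genes. Ptcd3 was at 9.82 CPM at 0 h, 40.8 and 44.0 CPM at 24 h, and 16.7 and 16.2 CPM at 72 h. Chchd1 was at 191, 299, 326, 203 and 325 CPM, with a log2 ratio of 0.68 with MDSCs at 72 h, and was the 1 gene of the 6 above 0 there. Dap3, a GTP-binding protein of the small subunit, kept between 98.2 and 124 CPM in all 5 libraries.

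The mRNAs that the mitoribosome translates and the nuclear genes of the respiratory chain had other courses over time. Over all genes 53.6% were higher and 14.6% lower at 24 h than at 0 h. From 24 h to 72 h with DCs 21.5% were higher and 33.8% lower. Of 13 mitochondrially encoded mRNAs 8 were lower at 24 h than at 0 h (median -0.79), and from 24 h to 72 h with DCs 3 were higher and 2 lower. Their sum was 3.43 times the mitoribosomal sum at 0 h, 1.32 times at 24 h with DCs and 1.36 with MDSCs, and 2.06 and 1.96 times at 72 h. Of 76 counted nuclear genes of the respiratory chain and ATP synthase, 7 were higher and 6 lower at 24 h, and 8 higher and 4 lower from 24 h to 72 h with DCs (medians 0.13 and 0.21). The ratio of their sum to the mitoribosomal sum was 3.49 at 0 h, 2.37 and 2.18 at 24 h, and 4.01 and 3.87 at 72 h. Cytosolic ribosomal proteins had medians of -0.20 and -0.05. With MDSCs at 72 h the nuclear respiratory chain genes were close to the mitoribosomal ones, with medians of 0.26 and 0.31. There 66 and 69 of 76 genes were above 0, and 7 and 14 were higher at 1.5-fold, against 7.9% of all genes higher. The mitochondrially encoded mRNAs had a median of -0.20 there, with 5 of 13 above 0, though the log2 ratio of their sum was 0.22.

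Of the genes that build cytosolic ribosomes, all 35 counted were higher at 24 h (median 1.70), all 35 lower at 72 h with DCs (median -2.31), and 16 higher with MDSCs at 72 h (median 0.58). The shares of all genes were 53.6%, 33.8% and 7.9%. Among regulators, Myc was at 40.0 CPM at 0 h, 156 and 151 CPM at 24 h, and 37.2 and 43.5 CPM at 72 h. Pprc1, a coactivator of mitochondrial biogenesis, was at 4.77, 33.9, 41.5, 6.31 and 10.6 CPM in the same order. Nrf1, a transcription factor of nuclear genes for mitochondria, was at 18.7 CPM at 0 h and between 23.9 and 34.9 CPM in the other libraries.

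**Figure D5:**
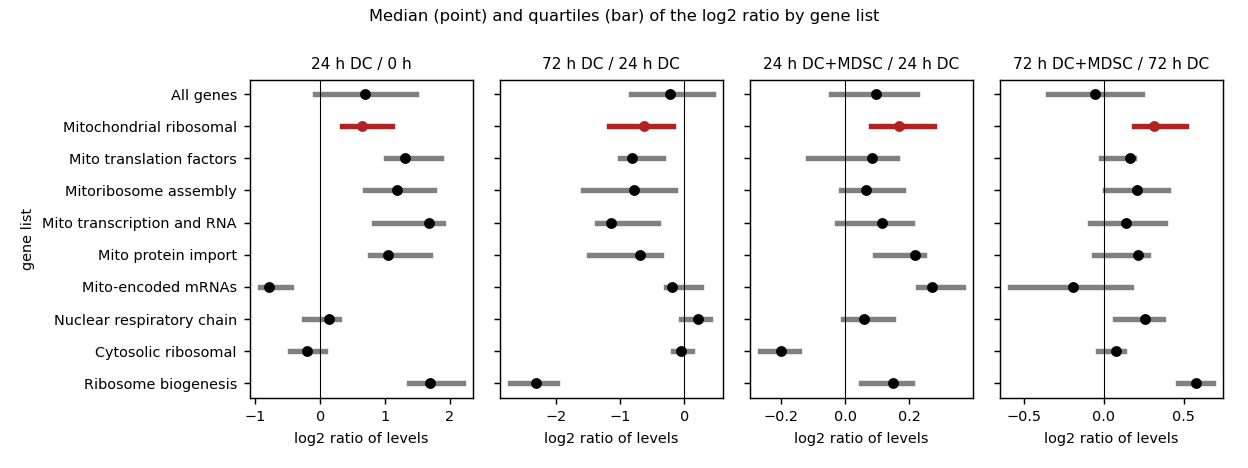
Median (point) and quartiles (bar) of the log2 ratio in 4 comparisons for all 6497 counted genes, the 76 mitochondrial ribosomal protein genes (red) and 8 other gene lists, each panel with its own axis. Mitochondrial ribosomal genes had medians of 0.65 (-0.047 when centred on all genes), -0.63, 0.17 and 0.31, against 0.69, -0.23, 0.10 and -0.06 for all genes.

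The genes lie on 17 chromosomes. In GENCODE release M21, 18 of the 76 counted genes (23.7%) have a protein-coding gene starting within 1000 bases on the opposite strand, pointing away, against 788 of the 6242 counted genes with a position (12.6%). Mrps12 starts 172 bases from Sars2, the mitochondrial seryl-tRNA synthetase. Sars2 was at 5.66 CPM at 0 h, 14.6 and 13.7 CPM at 24 h, and 11.4 and 11.9 CPM at 72 h. Of 9 such partners that were counted, 3 were lower at 72 h than at 24 h with DCs, near the 33.8% of all genes. Of their 9 mitoribosomal neighbours 6 were lower, against 41 of all 76 counted (53.9%). With 9 pairs, these counts do not set partners and neighbours apart from those shares. Exons of 27 of the 77 genes overlap another gene on the opposite strand and those of 8 on the same strand. Mrpl23, Mrpl48 and Mrps36 have processed pseudogenes named for them, so the values of all these genes are uncertain to the extent that reads were shared.

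Promoter windows of 300 bases (250 before to 50 after the start) were found for 68 of the 77 genes in the RefSeq table for GRCm38.p6. Read on both strands, CACGTG occurred in 7.35% of them, in 11.3% of the promoters of counted genes and in 7.24% of all promoters. GGGCGG occurred in 50%, 67.4% and 35.9%, and CCGGAAG, a core of ETS factor sites, in 35.3%, 24.0% and 9.12%. GCGCATGCG, an NRF1 motif, occurred in 10.3%, 4.78% and 1.81%, and AAGATGGCG, a YY1 site, in 11.8%, 4.41% and 1.49%. The last 3 motifs were thus more frequent in the mitoribosomal promoters than in those of counted genes, and the first 2 less frequent; a match is a description of letters and not of binding. The levels were set beside each of the 5 motifs in 5 comparisons, of which those of 72 h with DCs against 24 h and of MDSCs at 72 h are given. From 24 h to 72 h the median log2 ratio of counted genes with and without the motif was -1.20 and -0.60 for CACGTG (5 and 62 genes), -1.03 and -0.60 for AAGATGGCG (8 and 59) and -0.42 and -0.72 for GCGCATGCG (7 and 60). It was -0.52 and -0.72 for CCGGAAG (23 and 44) and -0.56 and -0.68 for GGGCGG (34 and 33). With MDSCs at 72 h the medians were 0.62 and 0.31 for GCGCATGCG, and between 0.26 and 0.31 with or without each of the other 4. These are descriptions of small sets and were not tested.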

How the data were processed

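Sorted cells went through 10x Genomics droplet libraries, per the labels' protocols. The submitters' processing notes name Cell Ranger 2.0.1, Seurat and mm10. The deposited values are natural log values, ln(1 + n), with n whole for each gene in each cell (0 exceptions beyond 1e-06). How the authors derived n is not given in the labels. Since n is no molecule count, no count model was used. Doublets were not treated. The deposited annotation gave each cell's library.

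From the table covering every time point, n was recovered, added up by gene and library, and divided by the library total (CPM). Genes averaging 10 CPM over the 5 libraries were counted, and called at 1.5-fold. A gene could thus be counted through high levels in few libraries, which favours large ratios for those libraries. The 77 genes, lists and rules were chosen with earlier results of these data known. For each comparison the naming rule took the 4 highest and 4 lowest ratios, besides a preset group of members and partners and the 2 most extreme genes of each list. Genes of the sets higher or lower in 1 culture, other list genes (Fastkd2, Pprc1), Mrpl53, Sars2, S100a8 and the 3 printed promoters were chosen after their values were seen, as was the split by level and scatter at 0 h. The code for levels and ratios was tested on simulated data with known folds; no hypothesis test was run. Python 3.11.15, numpy 2.4.6, pandas 2.3.3 and scipy 1.17.1 were used. The protein comparison planned for the Mrps18 genes was not made.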

Additional observations from a re-analysis of the deposited data

How the results depend on the processing

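Alternatives were no minimum level or 50 CPM, a pseudocount of 1 CPM, a total without cytosolic ribosomal and mitochondrially encoded genes, ratios centred on the median of all genes, averaged natural log values, the separate table of each time, and leaving out cells with 3 or more markers of another type. Values within 1.5-fold of the reported one (counts, sums, and the ratio behind a log2 value) were taken as kept: 107 of 121 counts, medians and sums, and 956 of 999 values for named genes, so a kept log2 value can still shrink, and only a value past 1.5-fold could count as reversed. Of the kept values, 20 of the 107 and 185 of the 956 came from leaving out marker-holding cells, 0 to 3 per library. The pseudocount gave another 15 and 185, and neither setting could change much. Centring kept 9 counts and medians, moved 5 and reversed 1, and for named genes it kept 148, moved 30 and reversed 7. The median of 72 h against 24 h with MDSCs went from -0.43 to -0.054 when centred, and that of MDSCs at 24 h from 0.17 to 0.058 under the reduced total. Centred ratios of 24 h with DCs to 0 h gave 17 genes higher, 11 lower and a median of -0.047, and turned Mrpl45 (-0.044), Mrpl28 (-0.098), Mrps10 (-0.0020), Mrpl22 (-0.011), Mrpl18 (-0.0075), Mrps30 (-0.069) and Mrps18a (-0.012) below 0. Centring also gave 3 higher for 72 h against 24 h with DCs, and 6 higher and 17 lower with MDSCs. Centred counts over all genes are not given beside these. The total without ribosomal and mitochondrial genes gave 1 lower at 24 h against 0 h and 3 higher at 72 h against 24 h with MDSCs, and sums of 14758, 19961, 21183, 13257 and 16826 CPM. Averaged natural log values gave 1 higher at 24 h with MDSCs against DCs. Centring subtracts the all-gene median and the reduced total rescales each library, which by construction gives these values; the cause of the others was not tested. No paired analysis was possible because each group is 1 library. Depth is unknown, so counting error of the molecules cannot be given, and differences between cultures cannot be told apart from differences between libraries.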
